A study of Mus musculus with 2 samples.

Results

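The genes described here are the heat shock chaperones Hspa8, Hspa5, Hspa1a, Hsph1, Hsp90aa1, Hsp90ab1, Dnajb1 and Hspb1 and the polyubiquitin gene Ubb. They were chosen by name as genes that respond to heat and to handling, with earlier results of these data known. All 9 of them are among the 25556 genes of the count table. The study measured nuclear RNA of the brainstem by single-nuclei RNA-seq in a mouse model of Dravet Syndrome, a childhood epilepsy caused by loss of function of the sodium channel gene Scn1a. Its seizures can be set off by a raised body temperature. The wildtype (WT) library came from a mouse with intact Scn1a, and the heterozygous (HET) library came from a Scn1aA1783V/WT mouse. The HET mouse carries a missense knock-in allele in all tissues because a Scn1a floxed male was bred with a Sox2-Cre female. Both mice were female, were on the C57Bl6 background, were collected at postnatal day 41 and received no treatment, so neither library comes from a heated animal. A spontaneous seizure before collection was not a criterion for choosing the mice. Both were euthanized with Euthasol and perfused before the brainstem was frozen. Each genotype has 1 library, so no difference between genotypes could be tested, and genotype, mouse and library preparation cannot be told apart.

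Chaperones bind unfolded proteins and help them to fold. HSP70 proteins do so in cycles of ATP hydrolysis that are started by J domain proteins and reset by nucleotide exchange factors, HSP90 proteins complete the folding of kinases and receptors, and small heat shock proteins hold unfolded chains until the other families act. Under heat or other protein stress, the transcription factor HSF1 binds heat shock elements in promoters and raises the inducible members within minutes, while the constitutive members are abundant in unstressed neurons. Polyubiquitin genes supply the ubiquitin that marks damaged proteins for the proteasome.

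The WT library held 9259 nuclei and 70301390 UMIs (unique molecular identifiers, each counting 1 captured transcript), and the HET library held 9022 nuclei and 66176778 UMIs. The median nucleus held 5456 UMIs in the WT library and 5646 in the HET library, and 23 cell barcodes occurred in both. Levels are given as CPM, the UMIs of a gene per 1000000 UMIs, with an exact Poisson 95% interval. The log2 ratio is that of the CPM in the HET library over the WT library, with an exact 95% interval. These intervals cover counting error only and not the spread between mice. The share of UMIs from ribosomal protein genes also differed, at 0.545% in the WT library and 0.301% in the HET library, and its median per nucleus was lower in the HET library in each of the 16 deposited clusters. Summed markers of neurons, oligodendrocytes, astrocytes, microglia, endothelial cells, fibroblasts and ependymal cells were highest, among the 12 clusters compared below, in those named for these cells in both libraries. Markers of oligodendrocyte precursors had no cluster of that name and were highest in the ependymal cluster epend.1 in the WT library, at 562 CPM, and in the fibroblast cluster in the HET library, at 272 CPM. The endothelial markers came to 66.2 CPM over all WT nuclei and 28.6 CPM over all HET nuclei, those of choroid plexus to 401 and 44.7, and those of cerebellar granule cells to 4.49 and 18.4.

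Promoters are shown first, since HSF1 raises the inducible members through heat shock elements. The HSF1 target genes counted below also include the constitutive Hspa8 and Hsp90ab1. Of the 9 members, 6 matched an entry of the RefSeq promoter table (GRCm38.p6). Hspa8, Hsp90aa1 and Hsp90ab1 did not. A pair of facing sites of the element, GAANNTTC or TTCNNGAA, was searched in the 250 bases before the start. These motifs are palindromes, so both strands were covered. Only these exact letters were searched, so elements that depart from them were not counted. A match was found in 3 of the 6 members with an entry, Hspa1a, Hsph1 and Hspb1, and in 12.8% of all 32851 promoters in the table. Hspb1 held 2 matches, which 1.46% of all promoters reached. In Hspa5, Dnajb1 and Ubb these letters do not occur in that window. The lines below give 150 bases on the strand of the gene, with matches in capitals, for the 3 promoters with a match and for Ubb as one without. They are Hspa1a (chr17:34972157-34972306, minus strand), Hspb1 (chr5:135887769-135887918, plus strand), Hsph1 (chr5:149636337-149636486, minus strand) and Ubb (chr11:62551021-62551170, plus strand).
Hspa1a: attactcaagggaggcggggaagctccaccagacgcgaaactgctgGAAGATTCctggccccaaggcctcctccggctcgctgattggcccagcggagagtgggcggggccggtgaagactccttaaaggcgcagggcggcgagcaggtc
Hspb1: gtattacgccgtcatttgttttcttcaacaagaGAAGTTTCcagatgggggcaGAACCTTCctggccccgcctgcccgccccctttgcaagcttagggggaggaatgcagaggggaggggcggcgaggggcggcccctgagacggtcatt
Hsph1: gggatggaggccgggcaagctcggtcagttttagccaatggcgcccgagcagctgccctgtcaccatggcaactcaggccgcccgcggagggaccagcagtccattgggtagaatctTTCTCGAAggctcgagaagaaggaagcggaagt
Ubb: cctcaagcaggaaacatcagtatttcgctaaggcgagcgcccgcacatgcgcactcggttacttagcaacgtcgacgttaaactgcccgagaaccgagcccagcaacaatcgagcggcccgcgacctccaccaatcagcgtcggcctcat
The 3 members with a match did not move alike. The level of Hspb1 and that of Hspa1a were lower in the HET library, whereas that of Hsph1 was higher, as described next.

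Of the 9 genes, 8 were lower in the HET library and 1, Hsph1, was higher. Calls of at least 1.5-fold were made on genes with at least 200 UMIs, which 8 of the 9 members had. Of those 8, 6 were at least 1.5-fold lower in the HET library, compared with 12.7% of all 16347 genes tested, and none was at least 1.5-fold higher, compared with 6.29%. Hsp90aa1 was just past this fold, at 1.52-fold lower, and Hspa5 just short of it, at 1.46-fold lower. Hspa1a was 2.33-fold lower but had too few UMIs for the count. Since the members were chosen with earlier results of these data known, the count is a description and not a test. The median log2 ratio was -0.77 over the 9 members and -0.10 over all genes with at least 200 UMIs. Relative to that shift, the members' log2 ratios ran from -2.29 for Hspb1 to 0.43 for Hsph1, and Hsp90aa1, at -0.50, was then below the fold.

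**Figure D1:**
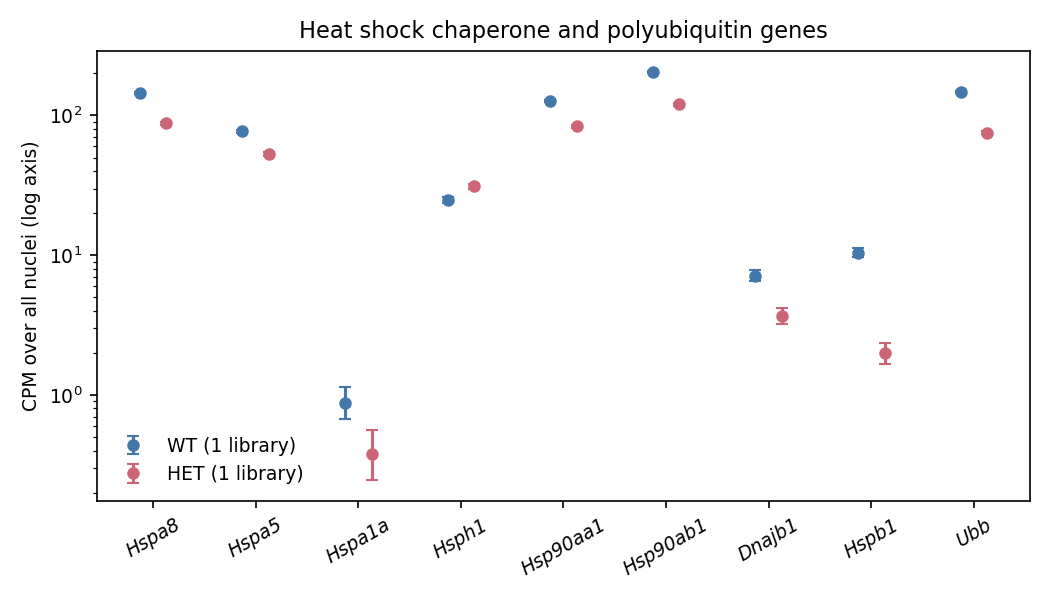
CPM over all nuclei (log axis) of the 9 genes in the WT library (blue) and the HET library (red), with exact Poisson 95% intervals as bars, which cover counting error only. The HET point lies below the WT point for 8 genes and above it for Hsph1, with 31.1 against 24.8 CPM.

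Among the HSP70 members, the constitutive Hspa8 (chr9:40800984-40810087, GRCm38), which uncoats clathrin vesicles at synapses, was at 145 CPM (142.6 to 148.3) in the WT library and 87.7 CPM (85.4 to 89.98) in the HET library. Its log2 ratio was -0.73 (-0.78 to -0.68), and 7.54% of genes had a ratio as low or lower. Hspa5 (chr2:34771970-34777547), the chaperone of the endoplasmic reticulum also known as BiP, was at 77.1 CPM in the WT library and 52.7 CPM in the HET library, with a log2 ratio of -0.55 (-0.61 to -0.49). For Hspa5, 14.2% of genes had a ratio as low or lower. The intervals of the libraries did not overlap for either gene, but they cover counting error only. The share of all genes without overlap was not counted. A UMI of Hspa8 was seen in 63.3% of WT nuclei and 44.1% of HET nuclei, and at a common depth of 1000 UMIs per nucleus it was 18.1% and 10.6%.

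Hspa1a (chr17:34969190-34972156) encodes the strongly heat-inducible HSP70 in a single exon. It was the least abundant member in both libraries by UMIs. The WT library held 62 UMIs in 61 nuclei, or 0.882 CPM (0.676 to 1.13), and the HET library held 25 UMIs in 24 nuclei, or 0.378 CPM (0.244 to 0.558). No nucleus of either library held more than 2 UMIs of it. Its log2 ratio was -1.22, with a wide interval of -1.96 to -0.53. Its neighbour and near copy Hspa1b had 13 UMIs in the WT library and 6 in the HET library, and the promoters of the pair are identical at 149 of the 150 bases shown for Hspa1a. A UMI was seen in 0.659% of WT nuclei and 0.266% of HET nuclei. Free RNA also gives UMIs in droplet data, and its part in these shares was not tested.

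Hsph1 (chr5:149614287-149636376), a large HSP70 relative that resets HSP70 by nucleotide exchange and helps to take aggregates apart, was the exception. It was at 24.8 CPM (23.7 to 26.0) in the WT library and 31.1 CPM (29.8 to 32.5) in the HET library. The log2 ratio was 0.33 (0.23 to 0.42), or 1.25-fold higher in the HET library, and 87.3% of genes had a ratio as low or lower. It is among the HSF1 target genes, and its ratio was opposite in sign to that of the other 8 members.

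The cytosolic HSP90 genes were both lower in the HET library. Hsp90aa1 (chr12:110690605-110702728), the more inducible of the pair, was at 127 CPM in the WT library and 83.9 CPM in the HET library, with a log2 ratio of -0.60 (-0.65 to -0.55). Hsp90ab1 (chr17:45567775-45573271), the constitutive one, was at 204 CPM and 120 CPM, with a log2 ratio of -0.77 (-0.81 to -0.73). The endoplasmic reticulum member Hsp90b1 and the mitochondrial Trap1, which are no members here, make up the HSP90 family list with them, and the list's 4 genes divided into 3 lower and 1 higher.

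Dnajb1 (chr8:83608193-83612653) is the inducible J domain partner of HSP70. It was at 7.14 CPM (6.53 to 7.79) in the WT library and 3.69 CPM (3.24 to 4.18) in the HET library, a log2 ratio of -0.95 (-1.18 to -0.73). Only 3.20% of genes had a ratio as low or lower. Hspb1 (chr5:135887919-135889563), the small heat shock protein HSP25, showed the largest difference of the 9. It was at 10.4 CPM (9.64 to 11.2) in the WT library and 1.98 CPM (1.66 to 2.35) in the HET library, which is 5.25-fold lower, with a log2 ratio of -2.39 (-2.67 to -2.12). The share of genes with a ratio as low or lower was 0.0918%.

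Ubb (chr11:62551171-62553213), a polyubiquitin gene, was at 147 CPM (144.2 to 149.9) in the WT library and 75.2 CPM (73.1 to 77.3) in the HET library. Its log2 ratio was -0.97 (-1.02 to -0.92), and 61.8% of WT nuclei and 40.3% of HET nuclei held a UMI of it. Its open reading frame of 915 bases is made of 4 copies of 228 bases, each coding for 1 ubiquitin, which share 95.6% to 99.1% of their bases in pairs. The first 30 bases of each copy are given here to show the repeat, with a base that differs from the first copy in capitals.
Ubb repeat 1: atgcagatcttcgtgaagaccctgaccggc
Ubb repeat 2: atgcagatcttcgtgaagaccctgaccggc
Ubb repeat 3: atgcagatcttcgtgaagaccctgacTggc
Ubb repeat 4: atgcagatcttcgtgaagaccctgaccggc
Near copies bear on some of these counts, since reads that match several genes could be split or dropped. Of the 31-base words in the last 500 bases of the Hspa8 transcript, where 3' libraries read, 85.3% also occur in another annotated gene, and for Ubb, Hspb1 and Hsp90ab1 the shares were 74.9%, 27.0% and 18.7%. It was 0.851% for Hsp90aa1 and 0 for Hspa5, Hspa1a, Hsph1 and Dnajb1. The levels of Hspa8 and Ubb are therefore uncertain in absolute terms, although the same counting was applied to both libraries.

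The members' levels depended on the cluster. Of the 16 deposited clusters, 12 had at least 30 nuclei in each library, and the order of levels is given among these. In the WT library the endothelial cluster, endo, had the highest level of Ubb at 1330 CPM (1244 to 1420), of Hsp90ab1 at 1188 CPM, of Hspb1 at 654 CPM and of Hspa8 at 584 CPM, each above the next cluster beyond the counting interval. In the HET library endo was again highest for these 4 genes, at 538, 455, 186 and 238 CPM. Hspa5 was also highest in endo, at 283 CPM in the WT library and 125 CPM in the HET library, but in both it overlapped with epend.1. Hsp90aa1 was highest in epend.1, at 678 CPM in the WT library and 247 CPM in the HET library, and so was Hsph1, at 118 and 114 CPM. The neuronal cluster neuron.4 was lowest for Hspa8, Hspa5, Hsp90aa1, Hsp90ab1, Hsph1 and Ubb in both libraries. For Hspa1a and Dnajb1 no cluster stood apart from the next in either library. Outside these 12, the small cluster neuron.9, with 35 WT and 2 HET nuclei, was above all of them in the WT library for Ubb at 1640 CPM, Hspa8 at 1404 CPM, Hsp90aa1 at 1321 CPM, Hsp90ab1 at 1274 CPM and Hsph1 at 189 CPM. Another, neuron.8, with 44 WT and 9 HET nuclei, was below neuron.4 in the WT library for Hspa8 at 57.7 CPM and Ubb at 49.2 CPM. Among the 12 clusters the median ribosomal percentage was highest in endo, at 2.17% (WT) and 0.889% (HET). It was lowest in neuron.4, at 0.379% and 0.254%. The WT nuclei of neuron.9 had medians of 11.1% ribosomal UMIs, 6.64% mitochondrial UMIs and 2034 UMIs in all. The part of the ribosomal percentage in the order of levels was not tested.

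The libraries were compared in these 12 clusters, and a member was counted in a cluster where it had at least 20 UMIs. Of 108 pairs of a member and a cluster, 84 passed. In 76 of the 84 the level was lower in the HET library, and in 58 the interval lay below 0. Leaving out Hsph1, 71 of 72 pairs were lower, and the exception was Hspa5 in microglia at 0.11 with an interval that includes 0. The like shares over all genes were not counted. Over genes with at least 100 UMIs in a cluster, the median log2 ratio ran from -0.10 in the oligodendrocyte cluster to 0.028 in neuron.7. At least 1.5-fold lower were 6.37% of such genes in neuron.7, the smallest share, and 27.6% in endo, the largest. Of the members that passed at 20 UMIs it was 4 of 6 in neuron.7 and 6 of 7 in endo. In neuron.7 only Hsp90ab1, with 140 UMIs in all, had at least 100. Hspa8, Ubb and Hsph1 are in the 4 with 89, 86 and 37 UMIs, and the interval of Hsph1 there included 0. In endo only Hsph1, with 32 UMIs, was below 100, and it is not in the 6. Hspa8, Hsp90ab1 and Ubb had an interval below 0 in all 12 clusters. Their log2 ratios ran from -1.29 in endo to -0.37 in neuron.3 for Hspa8, from -1.38 in endo to -0.42 in neuron.3 for Hsp90ab1, and from -1.56 in epend.1 to -0.47 in the fibroblast cluster for Ubb. In the nuclei whose reference label names the same type as the cluster, the ratio of Ubb was -1.12 in epend.1 (63 WT and 25 HET nuclei) and -1.93 in microglia (41 and 67 nuclei, 50 and 23 UMIs), where it was -0.73 before, and the members' median in epend.1 was -0.59 in place of -1.12. Cells of other types in epend.1 also differed between the libraries, with oligodendrocyte precursor markers at 562 CPM in the WT library and 26.4 CPM in the HET library, neuronal markers at 3108 and 6802 CPM and ependymal markers at 1223 and 810 CPM. Their part in the ratios was not tested. Hsp90aa1 was lower in all 12, with 9 intervals below 0, and Hspa5 in 11 of 12, with 6. In neuron.1, the largest cluster, 6 of the 9 members were at least 1.5-fold lower, compared with 12.3% of 16493 genes with at least 100 UMIs there. In the oligodendrocyte cluster it was 5 of the 8 members that passed, compared with 12.8% of 10464 genes. Hspa1a in neuron.1, with 42 and 13 UMIs, and Hspb1 and Dnajb1 in oligodendrocytes, with 60 and 64 UMIs in all, are in these counts below 100 UMIs.

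**Figure D2:**
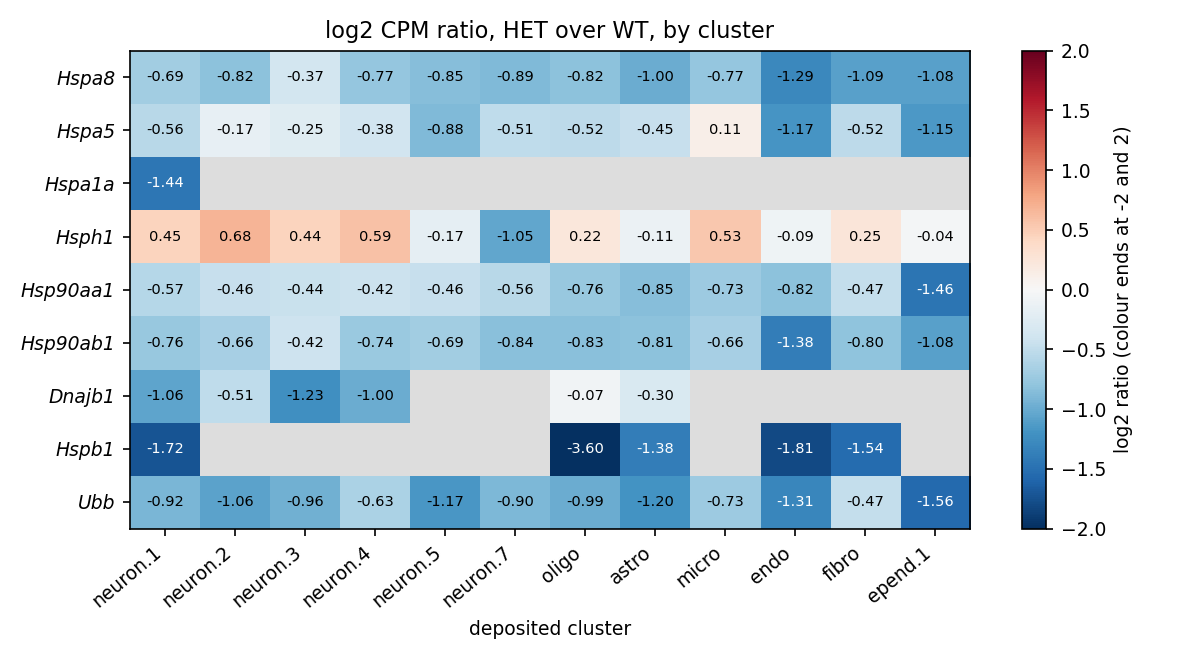
Log2 CPM ratio of the HET over the WT library for each of the 9 genes (rows) in the 12 compared clusters (columns). Blue is lower and red higher in the HET library, and grey marks fewer than 20 UMIs. The rows of Hspa8, Hsp90aa1, Hsp90ab1 and Ubb are blue throughout, and the row of Hsph1 runs from -1.05 in neuron.7 to 0.68 in neuron.2.

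Hsph1 was higher in 7 clusters and lower in 5. The interval lay above 0 in neuron.1, with 24.0 CPM in the WT library and 32.8 CPM in the HET library and a log2 ratio of 0.45 (0.33 to 0.56), and in neuron.2, with 21.1 and 33.8 CPM and a ratio of 0.68 (0.18 to 1.17). In the remaining 10 clusters it included 0. Among oligodendrocytes the levels were 28.8 and 33.6 CPM, and in epend.1, where the gene was highest of the 12, they were 118 and 114 CPM. The excess in the HET library was thus measured beyond counting error in these 2 neuronal clusters. Whether the clusters differ from each other was not tested.

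Dnajb1 passed in 6 clusters and was lower in all of them, but the interval excluded 0 only in neuron.1, with 372 UMIs in the WT library and 150 in the HET library and a log2 ratio of -1.06 (-1.35 to -0.78). In oligodendrocytes, with 28 and 36 UMIs, the log2 ratio was -0.07 (-0.82 to 0.70), so no difference was detectable at this depth. Neuron.1 held 74.1% of all Dnajb1 UMIs in the WT library and 61.5% in the HET library. In the WT library the nuclei of neuron.1 with a Dnajb1 UMI had a lower CPM of 7 of the other 8 members than those without, and Hspb1 was at 2.88 against 2.83 CPM. The interval of this ratio included 0 for Hsph1, Hspa1a and Hspb1. Hspa8 was at 103 CPM in the 331 nuclei with a Dnajb1 UMI and 129 CPM in the 4701 without, and Hspa1a had 2 UMIs in the former and 40 in the latter. The nuclei with a UMI were deeper, with a median of 11610 UMIs against 7537. In the HET library, with 135 nuclei with a Dnajb1 UMI and 3944 without, the interval lay below 0 for Hspa5 and Ubb only. For the others it included 0, and Hsph1 was at 39.4 CPM in the nuclei with a UMI and 32.5 CPM in those without.

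Endo was the main source of Hspb1 UMIs. It held 60.5% of its UMIs in the WT library and 46.6% in the HET library, and no other cluster passed 34.8 CPM in the WT library among the 12. Within endo its level was 654 CPM (442 UMIs) in the WT library and 186 CPM (61 UMIs) in the HET library, a log2 ratio of -1.81 (-2.22 to -1.42). Endothelial markers in the same cluster were at 5290 CPM in the WT library and 3781 CPM in the HET library, choroid plexus markers were at 749 and 128 CPM, and neuronal markers were at 1422 and 3203 CPM. Of the endo nuclei, 161 in the WT library and 48 in the HET library also had an endothelial reference label, and in these the log2 ratio of Hspb1 was -1.12, that of Ubb -0.65 in place of -1.31, that of Hspa8 -0.94 and that of Hsp90ab1 -0.97. Outside endo the difference in Hspb1 remained, with a log2 ratio of -1.96 over all other nuclei. In neuron.1 there were 137 UMIs in the WT library and 35 in the HET library, a log2 ratio of -1.72 (-2.30 to -1.18). In oligodendrocytes there were 54 and 6 UMIs, or 9.24 and 0.761 CPM, which is 12.1-fold lower with a log2 ratio of -3.60 (-5.11 to -2.39). The oligodendrocytes of the libraries lay largely in different subclusters, with 825 WT and 35 HET nuclei in one, 39 and 827 in another and 133 and 730 in the next. In the one that both shared evenly, with 768 and 789 nuclei, Hspb1 had 19 and 3 UMIs and a log2 ratio of -2.74 (-5.14 to -0.98). In droplet data free RNA gives UMIs in nuclei that do not express a gene, and its part in the low levels outside endo was not tested.

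At a finer division, 28 deposited subclusters had at least 30 nuclei in each library. Hspa8 and Hsp90ab1 were lower in the HET library in all 28, Ubb and Hsp90aa1 in 27 and Hspa5 in 25. Dnajb1 was lower in 8 of the 9 subclusters where it had 20 UMIs and Hspb1 in 8 of 8, whereas Hspa1a passed in none. Hsph1 was lower in 7 of the 24 subclusters where it passed. The share of all genes that were lower in as many subclusters was not counted, so these counts do not set the members apart from other genes. The clusters within a subcluster were not always alike in the libraries, and in subcluster 21 most WT nuclei were of neuron.9 (35 of 56) and most HET nuclei of neuron.5 (46 of 70).

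The ribosomal share of each nucleus moved with the members, so the levels were also compared in nuclei of like ribosomal percentage. The nuclei of neuron.1 were divided into 4 bins of equal size by that percentage. The lowest bin held 374 WT and 1904 HET nuclei, and the highest 2105 WT and 173 HET nuclei. Within each library the levels of Hspa8, Hspa5, Hsp90aa1, Hsp90ab1 and Ubb were higher in each next bin. Hspa8 went from 72.2 to 198 CPM in the WT library and from 65.4 to 165 CPM in the HET library, and Ubb from 53.0 to 204 and from 48.7 to 155 CPM. Within a bin the libraries were closer than in the whole cluster. The log2 ratio of Hspa8 was -0.69 in the whole cluster and -0.14, -0.15, -0.15 and -0.26 in the bins from lowest to highest, and that of Ubb was -0.92 in the whole cluster and -0.12, -0.19, -0.32 and -0.39 in the bins. For Hsp90ab1 the values were -0.27, -0.28, -0.34 and -0.38 in place of -0.76, and for Hsp90aa1 -0.20, -0.16, -0.15 and -0.13 in place of -0.57. Hspa5 had ratios of -0.0026, 0.16, 0.063 and -0.095 in place of -0.56, and the interval of the second bin lay above 0 (0.0080 to 0.32).

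Dnajb1 and Hsph1 behaved otherwise. Dnajb1 had no such order, at 7.81, 7.12, 8.40 and 7.34 CPM in the WT library and 3.67, 3.88, 3.30 and 3.75 CPM in the HET library. Its log2 ratios of -1.09, -0.87, -1.35 and -0.97 lay on both sides of the -1.06 of the whole cluster, and the interval lay below 0 in the first 3 bins. The highest bin held only 3 Dnajb1 UMIs in the HET library. Hsph1 was higher in the HET library by 0.54, 0.64, 0.57 and 0.24 on the log2 scale, with the interval above 0 in the first 3 bins. Hspb1 rose with the bins, from 0.781 to 4.93 CPM in the WT library and from 0.638 to 3.75 CPM in the HET library. The last value rests on 3 UMIs. Its log2 ratio, -1.72 in the whole cluster, was -0.29, -0.94, -1.16 and -0.39 in the bins, and each of these intervals included 0. Ribosomal share, genotype and library cannot be told apart in these data, and the part of the ribosomal share in the differences was not tested.

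**Figure D3:**
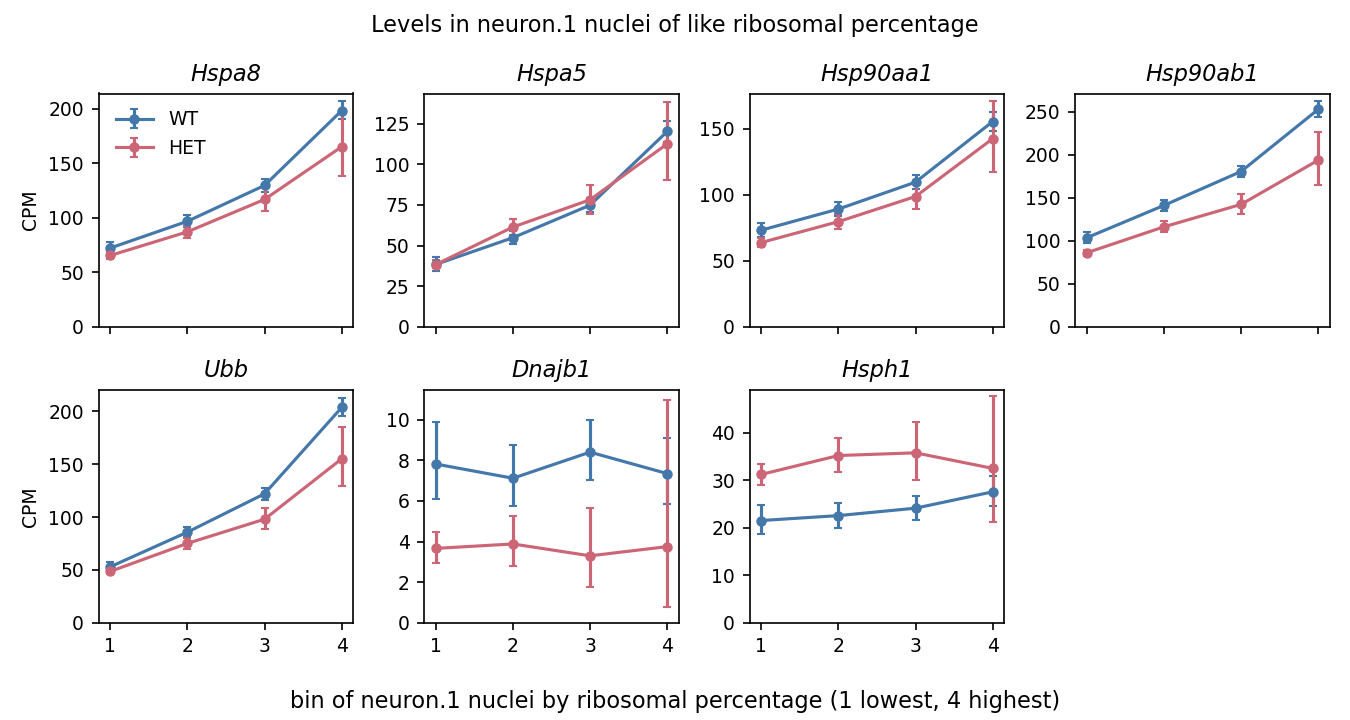
CPM of 7 genes in the WT library (blue) and the HET library (red) in the bins of neuron.1 nuclei by ribosomal percentage, from lowest to highest, with exact Poisson 95% intervals that cover counting error only. Hspa8, Hspa5, Hsp90aa1, Hsp90ab1 and Ubb rise from left to right in both libraries, whereas Dnajb1 stays near 8 CPM in the WT library and near 4 CPM in the HET library.

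Across the 12 clusters in both libraries (24 points), Pearson's r of log2(CPM + 1) was taken between Hspa8, Hsp90ab1 or Ubb and each of 13846 genes. Hspa8 and Hsp90ab1 were each other's nearest gene, with an r of 0.97. The 5 genes most like Ubb were Rps10 (0.99), Rps19, Rpl21, Rpl37a and Rpl3, which all encode ribosomal proteins. The median r over all genes was between 0.037 and 0.048. Hsph1 had an r of 0.64 to Hsp90aa1, 0.55 to Hspa5, 0.40 to Hsp90ab1, 0.27 to Hspa8 and 0.19 to Ubb, and Dnajb1 had an r of 0.34 to Hspa8, 0.27 to Hspa5, 0.33 to Hsp90ab1, 0.22 to Hsp90aa1 and 0.37 to Ubb. These points share 2 libraries and differ in depth, so r is a description.

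Gene length also ordered the ratios. Of the 16347 genes with at least 200 UMIs, 98.5% could be given a length from first to last exon (GENCODE annotation of GRCm38). The median log2 ratio was -0.46 for the 1854 genes of at most 5 kb, -0.23 from 5 to 20 kb, -0.08 from 20 to 100 kb and 0.10 for longer genes. Dnajb1, Hspb1 and Ubb fall in the shortest class, where 40.1% of genes were at least 1.5-fold lower in the HET library, and Hspa8, Hspa5, Hsp90aa1 and Hsp90ab1 in the next, where 16.6% were. Hsph1, with 18 exons over 22.1 kb, is the only one of the 8 above 20 kb, in a class where 5.94% were lower by that fold. Each of the 7 shorter members lay below the median of its class and Hsph1 above it.

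**Figure D4:**
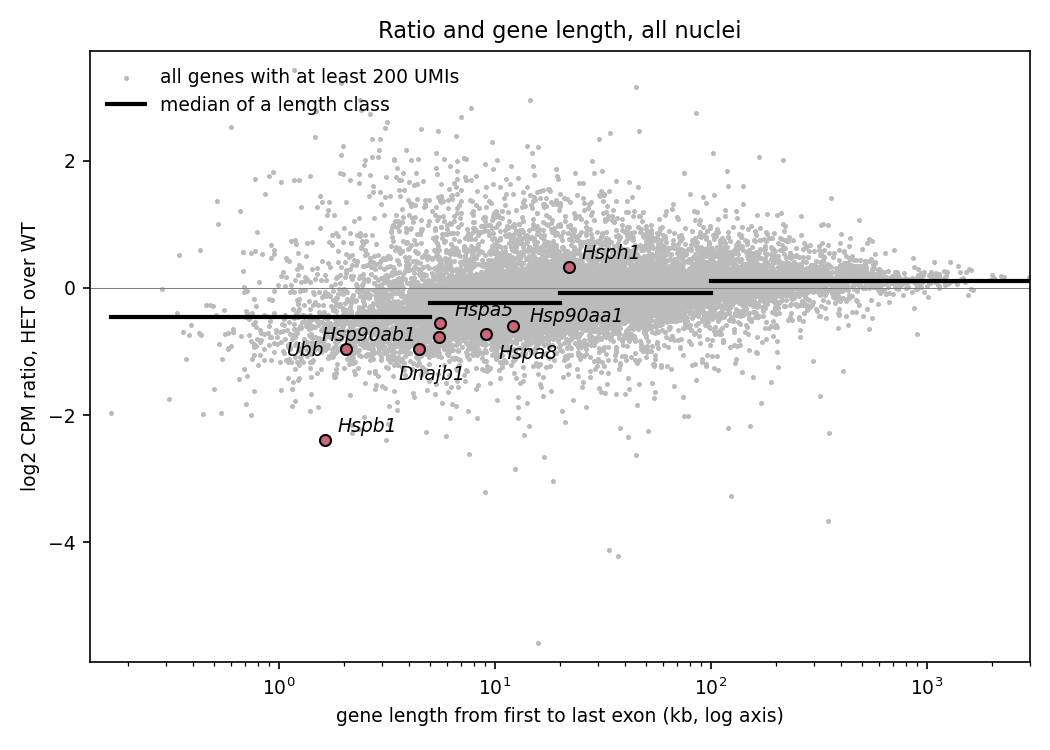
Log2 CPM ratio of the HET over the WT library against gene length (kb, log axis) for genes with at least 200 UMIs and a UMI in both libraries (grey), with 8 of the 9 members in red and black lines at the median of each length class. The medians climb from -0.46 to 0.10 with length, and 7 members lie below the line of their class.

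The wider families were lower in the HET library in part. Counted over genes with at least 20 UMIs, 58.9% of all genes were lower and the median log2 ratio was -0.09. In the HSP70 family 10 of 14 genes were lower, with a median of -0.34, from Hspa1a to Hsph1. All 7 small heat shock protein genes were lower, with a median of -0.96. Hspb11 was nearest to 0 at -0.08, and Cryab, alpha B crystallin of oligodendrocytes, went from 50.3 to 25.9 CPM. All 9 subunits of the TRiC chaperonin, which folds actin and tubulin, were lower, between Cct5 at -0.64 and Cct4 at -0.01. Of the 13 HSP90 cochaperones 10 were lower (median -0.28), from Aarsd1 at -0.65 to Ahsa2 at 0.47. The 26 J domain proteins had a median of -0.09, equal to that of all genes, with 17 lower, and Dnajc10 was the highest at 0.20. Among 12 nucleotide exchange and partner factors 10 were lower (median -0.15), from Stub1, a ubiquitin ligase that works with HSP70, at -0.55 to Grpel2 at 0.21. Mitochondrial chaperones and proteases had 9 of 10 lower (median -0.15), from Clpp at -0.73 to Dnaja3 at 0.07. Of 22 genes of the endoplasmic reticulum and its unfolded protein response, 20 were lower (median -0.19), between Sdf2l1 at -1.36 and Hyou1 at 0.27.

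The heat shock factors themselves had log2 ratios from -0.17 for Hsf1 to 0.15 for Hsf4, and Hsf1 was at 26.6 CPM in the WT library and 23.5 CPM in the HET library. Their list also holds Hsbp1, a factor that binds HSF1, which was lowest at -0.71. Of the 5 genes in the list 3 were higher, with a median of 0.01. Hsbp1 was the 1 gene of the list at least 1.5-fold lower, compared with 15.3% of all genes with at least 20 UMIs. Of 21 HSF1 target genes 18 were lower with a median of -0.42, but 8 of the 21 are members. The 13 that are not members had a median of -0.23, with 11 lower, and ran from Serpinh1, the collagen chaperone, at -0.94 to Chordc1 at 0.25. The targets other than the 8 members thus lay nearer to the median of all genes.

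Beside the members, all 80 ribosomal protein genes were lower in the HET library (median -0.85). The 2 ubiquitin activating enzymes, which start the transfer of ubiquitin to its targets, were not lower, with a median of 0.06. Of the 31 proteasome subunits 28 were lower (median -0.26), between Psmb4 at -0.92 and Psmc4 at 0.13.

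Immediate early genes, which neurons raise within minutes of activity or handling, were also lower for the most part. Of 16 genes 14 were lower, 9 by at least 1.5-fold, with a median of -0.60. Of all genes with at least 20 UMIs, 15.3% were lower by that fold. Ier2 was lowest at -1.88, with 453 UMIs in the WT library and 116 in the HET library, and Nr4a3 was highest at 0.79, with 91 and 148 UMIs. Of 5 RNAs that stay in the nucleus all were lower by less than 1.5-fold, from Snhg11 at -0.57 to Malat1 at -0.06. The differences in seizure history, handling and dissection between the 2 mice cannot be told apart from genotype.

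**Figure D5:**
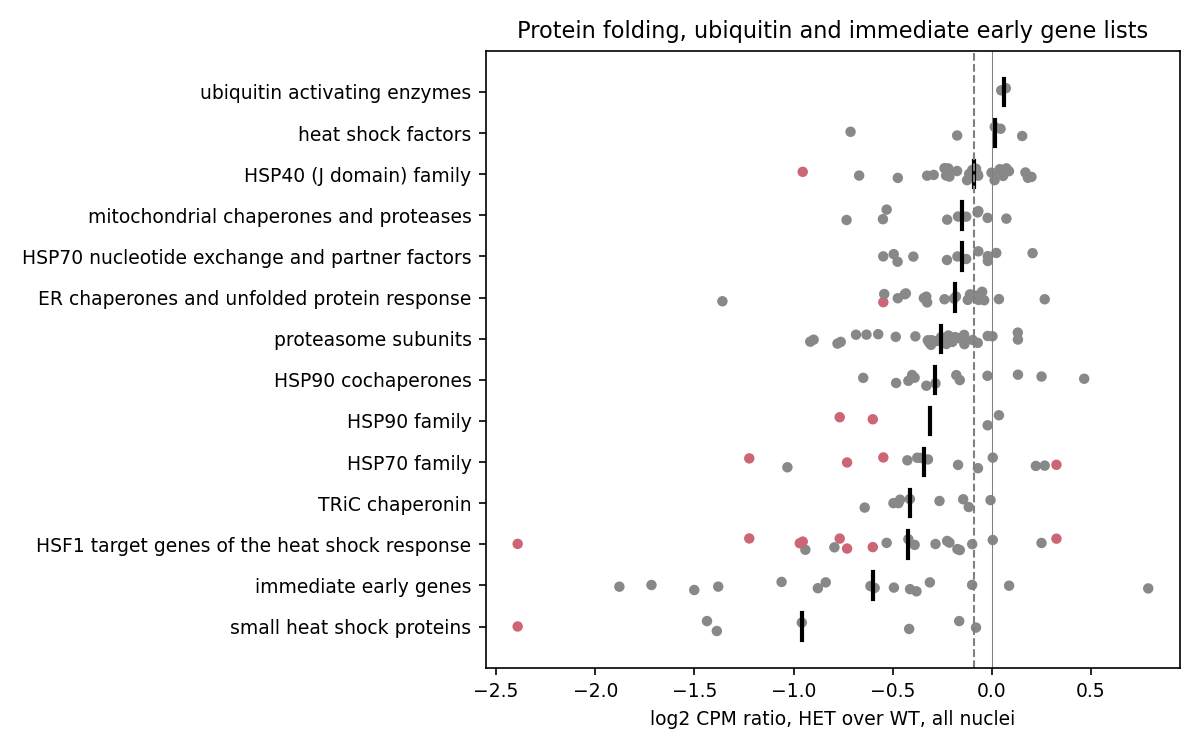
Log2 CPM ratio of the HET over the WT library over all nuclei for genes with at least 20 UMIs in each list (points, members in red), with a black bar at the median of the list and a dashed line at the median of all genes, -0.09. The medians of the small heat shock proteins and the immediate early genes lie farthest to the left. Those of the heat shock factor list and the ubiquitin activating enzymes lie around 0, with Hsbp1 of the heat shock factor list at -0.71.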

How the data were processed

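The files hold 2 single-nuclei libraries of mouse brainstem, 1 per genotype. The authors made the deposited counts, UMIs per gene and nucleus without normalization, from 10x Chromium 3' libraries with Cell Ranger (version not given in the sources used here) on its mm10 reference. They then filtered nuclei and genes in Seurat, which the submitters' processing notes give as version 4.1. Percent values of ribosomal and mitochondrial UMIs and a doublet score per nucleus were also deposited by the authors. Called doublets had been removed; the caller is not given in the sources used here. Clusters, subclusters and reference labels were used as deposited, and no alignment or clustering was repeated.

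UMIs were summed per library, and per library and cluster, and divided by the total UMIs to give CPM. Intervals at 95% were exact Poisson for a level, exact conditional binomial for a ratio and Clopper-Pearson for a share. The script was tested on simulated data. With 1 library per genotype no test was made. Minimums were 20 UMIs for a list or a cluster, 200 UMIs for a call over all nuclei, 100 UMIs for a call in a cluster and 30 nuclei in each library. The genes named were the 9 members, the genes with the highest and lowest ratio of each list among those with 200 UMIs, and the 5 genes nearest in pattern to Hspa8, Hsp90ab1 and Ubb. Some of these genes, and 1 gene list, are not reported here. Hspa1b, Cryab and Hsf1 were named in addition as near copies or well known members of their lists, after their values were seen. Members and lists were chosen with earlier results of these data known. Depth was 70301390 UMIs (WT) and 66176778 UMIs (HET), and counting intervals do not cover the spread between mice. Alternatives were other scalings, equal cluster weights, filters on depth, mitochondrial percentage, doublet score and neuron.5, other minimums and thinning to 1000 UMIs. The bins of ribosomal percentage and the values without endo or without the small clusters were added after the data were seen. Analyses used Python 3.11.15 with numpy 2.4.6, pandas 2.3.3, scipy 1.17.1 and matplotlib 3.10.9. Proteomic, metabolite and behavioural measurements were not analysed here.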

Additional observations from a re-analysis of the deposited data

Results flagged for a closer look

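Hsph1 was the only one of the 9 genes whose counting interval lay above 0 in some deposited subclusters and below 0 in another. Its log2 ratio was above 0 in subclusters 0, 1, 3, 5 and 9, which lie mostly in neuron.1, at 0.33, 0.56, 0.59, 0.49 and 0.50. It was also above 0 in subcluster 14, mostly neuron.2, at 0.71, and in subcluster 28, mostly microglia, at 1.81, where it rests on 5 UMIs in the WT library and 15 in the HET library. In subcluster 21 it was -1.32, with 18 UMIs in the WT library and 19 in the HET library. There the clusters differed between the libraries, since 35 of the 56 WT nuclei were of neuron.9 and 3 of neuron.5, while 2 of the 70 HET nuclei were of neuron.9 and 46 of neuron.5, so this ratio compares different clusters. The difference between subclusters was not tested, since each genotype has 1 library.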

How the results depend on the processing

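Over 9 alternatives run on all nuclei, the 8 lower members stayed lower in each and Hsph1 stayed higher, between 0.20 and 0.43. The median log2 ratio of the members, -0.77, was -0.66 when taken relative to the median gene and -0.86 both for the mean over nuclei of CPM and for nuclei thinned to 1000 UMIs, which are equal by construction. Relative to the median gene, HSF1 targets went from -0.42 to -0.32 and proteasome subunits from -0.26 to -0.15. The median difference in the share of nuclei with a UMI, -10.6 points, was -3.05 after thinning. In the bins of ribosomal percentage the members' median ran from -0.17 to -0.32 in neuron.1 and from -0.12 to -0.63 in astrocytes. In the lowest bin of oligodendrocytes the median turned to 0.0067, which is the value of Hspa8 there. In astrocytes Hsp90ab1 turned to 0.015 in the highest bin and Ubb to 0.35 in the lowest and 0.52 in the highest, where 1 library had at most 25 nuclei. The cause was not tested. No paired analysis was possible because each genotype has 1 library and no test was made. For the same reason no replicate could be left out. Depth limits Hspa1a and Dnajb1 outside neuron.1, and Hspb1 in the 7 clusters where it had under 20 UMIs.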
